A study of Mus musculus with 9 samples.

Results

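Hnf4aos is a long noncoding RNA transcribed from the strand opposite Hnf4a on mouse chromosome 2. It was followed here through all array probes that carry its name. There were 2 of these among 97836 probes. Of all probes 5867 could be named, for 5398 genes, of which Hnf4aos is 1. The first probe was named through its RefSeq transcript and is called the RefSeq probe. The second was designed to a RIKEN cDNA clone whose name is an older symbol of Hnf4aos in the RefSeq gene table, and is called the RIKEN clone probe. Each probe had a single spot per array. Where in the transcript each lies, and whether they overlap, was not analysed here.

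The RNA came from livers of male C57BL/6J mice aged 20 weeks, wild type in every group, on 9 single-colour (Cy3) arrays. Every array held liver pooled from 4 mice. The 3 groups had 3 such pools each, 36 mice in all. The control group ate chow for 17 weeks, and no gavage is recorded for it. The high fat diet group ate a diet with 45% of energy as fat over the same time, with saline gavage during the final 5 weeks. The metformin group had that diet and, in place of saline, gavage with metformin, a glucose-lowering drug, at 3 mg/kg per day. The high fat diet groups thus share the diet and the gavage, and a difference from control includes the gavage. A pool averages over its mice, so single mice may vary more than pools did.

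HNF4A, the protein product of Hnf4a, is a nuclear receptor and one of the main transcription factors that set and keep hepatocyte identity. It switches on genes of lipoprotein secretion, bile acid synthesis, blood clotting and gluconeogenesis. Its gene has a downstream promoter that is used in adult liver and an upstream promoter better known from pancreas and fetal tissue. Antisense transcripts such as Hnf4aos are transcribed from the strand opposite a gene, without encoding a protein.

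In the RefSeq tables used here (GRCm38.p6) Hnf4aos runs on the minus strand and Hnf4a on the plus strand. The Hnf4aos locus spans 47918 bases, and 34911 of them (72.9%) lie opposite Hnf4a, which is 52.8% of the Hnf4a locus. Hnf4aos starts between both listed starts of Hnf4a. Its start lies 5434 bases upstream of the downstream Hnf4a start, and transcription runs away from that start. It then passes the upstream Hnf4a start after 34864 bases and overlaps the next gene, R3hdml, over 8818 bases. The promoter of Hnf4aos is shown because it is the regulatory sequence of the transcript measured. It comprises 250 bases before and 50 after the start and lies at chr2:163541672-163541971 on the minus strand of GRCm38.p6. Capitals mark the letters CAAAGTCC, a core of the motif that HNF4 proteins prefer.
Hnf4aos promoter: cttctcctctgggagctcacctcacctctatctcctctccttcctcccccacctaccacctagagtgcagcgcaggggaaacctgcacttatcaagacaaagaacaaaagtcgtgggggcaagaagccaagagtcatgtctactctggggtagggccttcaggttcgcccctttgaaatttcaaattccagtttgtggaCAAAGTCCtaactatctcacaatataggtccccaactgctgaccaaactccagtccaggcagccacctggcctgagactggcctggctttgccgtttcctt

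The match begins 51 bases before the start, on the strand of Hnf4aos. On either strand these letters occur in 467 of the 32851 promoters of this length in the table (1.42%), and in neither promoter of Hnf4a. The core of HNF1 sites, GTTAAT, was not found in the Hnf4aos promoter. It occurs 2 times before the downstream Hnf4a start, and in 7.1% of all promoters. No match was found in the Hnf4aos window for the direct repeat of nuclear receptors with a spacer of 1 base (0.0152% of promoters), the HNF1 palindrome (0.00913%), the FOXA core TGTTTAC (3.65%), the CEBP palindrome TTGCGCAA (0.183%) or the TATA box TATAAA (13.6%). Some of these overlap, since GTTAAT forms each arm of the HNF1 palindrome. Each motif was searched by its exact letters, so near matches, also to the direct repeat, were not counted. A match is a description of the letters and was not tested as a binding site.

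Hnf4aos was clearly detected in every liver pool. Each probe was well above background on all 9 arrays, unsaturated and free of outlier marks. Processed signals, which are linear intensities with the background already subtracted, were 25.6 to 56.8 times the local background of the spot. On the RefSeq probe the control pools 1, 2 and 3 read 1034, 1191 and 1249 intensity units. The high fat diet pools read 1044, 794 and 811, and the metformin pools 910, 915 and 744. The order of the groups on this unscaled signal was not the order found after scaling, because the arrays themselves differed in brightness. Their 75th percentile ran from 177 in metformin replicate 3 to 258 in high fat diet replicate 3. All levels below are therefore log2 signal relative to the 75th percentile of the array, and a level of 2 stands for a signal 4 times that percentile.

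On that scale the RefSeq probe was at 2.09, 2.34 and 2.37 in control pools 1, 2 and 3. In the high fat diet pools it was at 2.27, 1.80 and 1.65. The metformin pools were at 2.08, 2.17 and 2.07. High fat diet replicates 2 and 3 were the lowest of all 9 pools, whereas high fat diet replicate 1 lay among the controls, so the groups overlapped. The metformin pools lay close together, with replicates 1 and 3 just below the lowest control and replicate 2 above it. Group means were 2.27 ± 0.15 (SD, n = 3) in the controls, 1.91 ± 0.32 in the high fat diet pools and 2.11 ± 0.05 in the metformin pools.

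The RIKEN clone probe gave 1.86, 2.25 and 2.26 in control pools 1, 2 and 3. It gave 1.90, 1.80 and 1.70 in the high fat diet pools. The metformin pools were at 1.85, 1.93 and 1.90. Here control replicate 1 was set apart from the other controls and lay among the pools on the high fat diet, again with overlapping groups. The means were 2.12 ± 0.23 (SD, n = 3), 1.80 ± 0.10 and 1.89 ± 0.04 in the same order of groups. Levels of different probes cannot be set against each other, so only the pattern over pools is compared below.

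**Figure D1:**
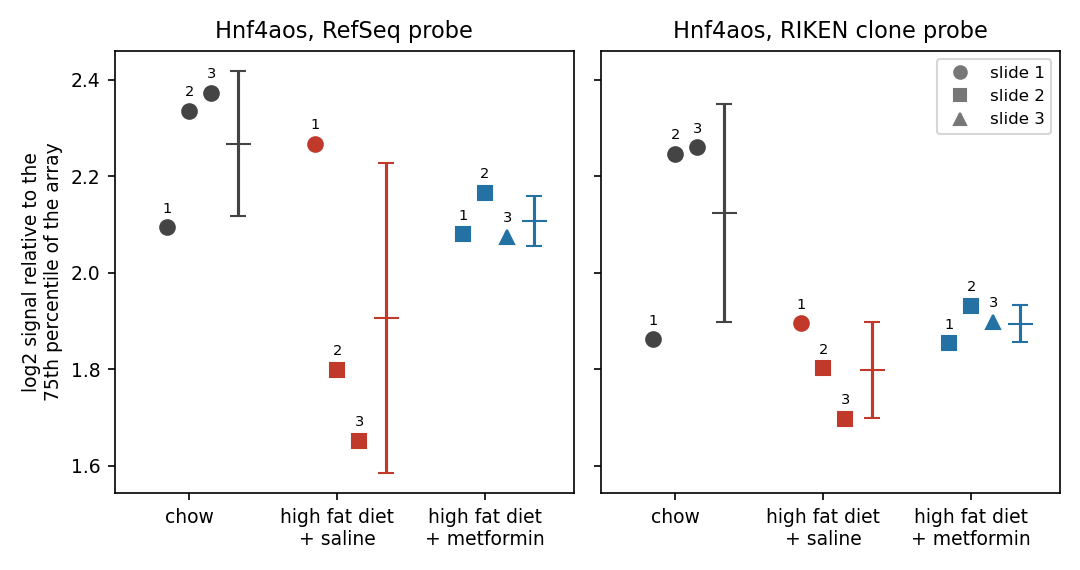
Level of Hnf4aos in each liver pool, as log2 signal relative to the 75th percentile of the array (y axis), for the RefSeq probe on the left and the RIKEN clone probe on the right. Each point is 1 pool of 4 mice, marked with its replicate number and shaped by slide; the horizontal mark and bar are the mean ± SD of 3 pools. High fat diet replicates 2 and 3 are the lowest pools on each probe, and on neither probe do the groups separate.

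From the highest to the lowest pool the RefSeq probe spanned 0.72 on the log2 scale, a 1.65-fold range, and the RIKEN clone probe spanned 0.56, a 1.48-fold range. The SD over the 9 pools was 0.24 and 0.19. Of the 62036 probes tested, 42.0% and 25.4% had a smaller SD. Among tested probes of like mean level the shares were 57.9% of 4713 for the RefSeq probe and 39.4% of 4973 for the RIKEN clone probe. Hnf4aos was thus neither among the steadiest nor among the most variable transcripts. For scale, probes of like brightness that have 2 spots per array gave an SD of 0.095 for a single spot (0.062 to 0.139 by array). The spread between control pools on each probe, and between high fat diet pools on the RefSeq probe, exceeded that spot error. On the RIKEN clone probe the spread between high fat diet pools (SD 0.099) was close to it. The metformin pools spread by less than it on each probe.

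The pattern over pools was much alike on both probes. Pearson's r between them was 0.837 and Spearman's rho 0.867 over 9 pools, and r was 0.733 for deviations from the group means. It was 0.869 without the pair of pools farthest from the median of the RefSeq probe, high fat diet replicates 2 and 3. The probes share each array, its RNA and its scaling, so these values are descriptive. In 21 other genes with a probe of each kind the same r ran from -0.62 to 0.62 with a median of 0.174. In 3 of those genes each probe averaged above the 75th percentile, and their median r was 0.265. Among 62035 other tested probes the RIKEN clone probe ranked 372 in r with the RefSeq probe, so 0.598% of them ran more like it.

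**Figure D2:**
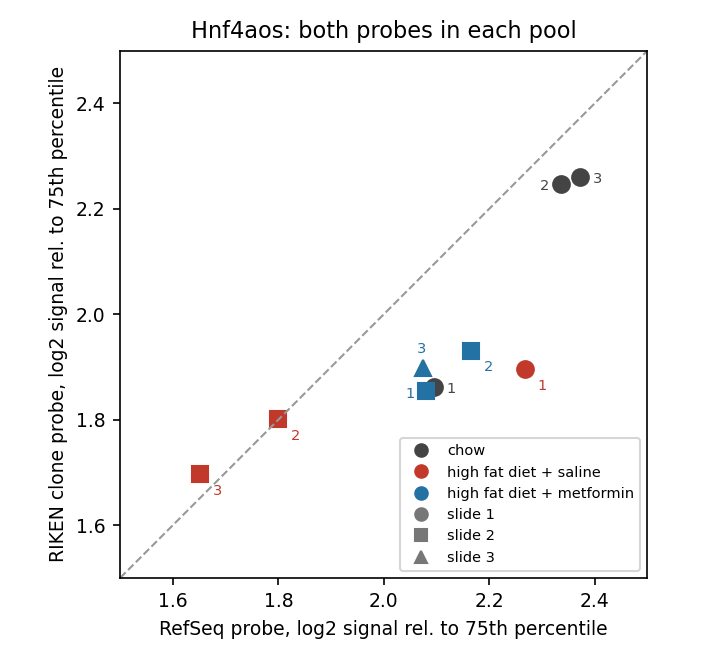
Level of Hnf4aos on the RIKEN clone probe (y axis) against the RefSeq probe (x axis) in the 9 pools, each as log2 signal relative to the 75th percentile of its array; colour gives the group, shape the slide, the number the replicate, and the dashed line marks equal values. The pools run along 1 diagonal (r = 0.837), with high fat diet replicate 1 farthest below the line.

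The gap between the probes varied most among the high fat diet pools (SD 0.23, against 0.077 in the controls and 0.032 in the metformin pools). The RefSeq level less the RIKEN clone level was 0.23, 0.09 and 0.11 in control pools 1, 2 and 3. It was 0.37, -0.0025 and -0.045 in the high fat diet pools, and 0.23, 0.24 and 0.18 in the metformin pools. High fat diet replicate 1 thus had the highest value of the 9 pools and high fat diet replicates 2 and 3 the lowest. The SD of this difference over the 9 pools was 0.130, close to the 0.134 that a pair of spots of 1 probe gives. No shift between groups was found in it by a two-sided exact permutation test of 3 arrays against 3, which cannot go below p = 0.1. The difference of differences was -0.036 between high fat diet and control (exact p = 0.9), 0.10 between metformin and high fat diet (exact p = 0.4) and 0.068 between metformin and control (exact p = 0.3). Adjusted over these 3 tests the permutation p-values were 0.9, 0.6 and 0.6.

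The first comparison asked whether the high fat diet alters Hnf4aos in liver. The mean of Hnf4aos was lower with the diet on each probe, but neither difference passed the test. The RefSeq probe differed by -0.36 on the log2 scale (SE 0.18, 95% interval -0.76 to 0.033, limma adjusted p = 0.461, unadjusted p = 0.0686). That is a level of 0.779 times control. The RIKEN clone probe differed by -0.32 (SE 0.15, 95% interval -0.66 to 0.007, limma adjusted p = 0.426, unadjusted p = 0.0541), or 0.798 times control. The call was 0 of 2 probes, where 0.0451% of all tested probes were called and the median difference of all of them was -0.010. Neither probe had groups that did not overlap, against 15.4% of all tested probes, and 12.1% had an unadjusted p under 0.05. In a bulk liver sample fewer cells that make a transcript and less of it per cell cannot be told apart.

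This difference depended on which pools were set side by side. The control pools and high fat diet replicate 1 lay on slide 1, and high fat diet replicates 2 and 3 on slide 2, together with metformin replicates 1 and 2. Metformin replicate 3 was alone on slide 3. Within slide 1 the RefSeq probe was at 2.27 in high fat diet replicate 1 and at 2.27 on average in the controls, a difference of 0.00025, and the RIKEN clone probe differed by -0.23. High fat diet replicates 2 and 3 averaged 0.54 below high fat diet replicate 1 on the RefSeq probe and 0.15 below it on the RIKEN clone probe. Without high fat diet replicate 1 the RefSeq difference was -0.54 (limma adjusted p = 0.195). Without high fat diet replicate 3 it was -0.23 (adjusted p = 0.752). Without control replicate 1 the RIKEN clone difference was -0.46 (adjusted p = 0.215). With slide as a fixed block limma gave the same 0.00025 and -0.23 as within slide 1. Only high fat diet replicate 1 shares a slide with the controls, so that fit rests on this single pool for the diet. With slide as a random block limma gave -0.45 (adjusted p = 0.195) and -0.35 (adjusted p = 0.209). In that fit the consensus correlation of pools on the same slide, over all tested probes, was negative (-0.168). These values therefore do not remove a shift that pools on a slide share.

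The second comparison asked whether metformin alters Hnf4aos under the high fat diet. The RefSeq probe was 0.20 higher with metformin (SE 0.18, 95% interval -0.19 to 0.59, limma adjusted p = 0.883), a level of 1.15 times that with saline. The RIKEN clone probe was 0.096 higher (SE 0.15, 95% interval -0.24 to 0.43, limma adjusted p = 0.945), or 1.07 times. Neither passed, and 0.00645% of all tested probes were called, with 6.64% at an unadjusted p under 0.05. Groups overlapped on each probe, while they did not for 16.2% of tested probes. The direction turned without scaling. On unscaled log2 signal the differences were -0.040 and -0.14, where the median of all tested probes was -0.23. Relative to that median Hnf4aos was higher with metformin, but subtracting the median is itself a scaling between arrays and no separate evidence.

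Slide 2 held 2 pools of each of these groups. There the mean of metformin replicates 1 and 2 was above that of high fat diet replicates 2 and 3 by 0.40 on the RefSeq probe and by 0.14 on the RIKEN clone probe. With slide as a block limma gave these same differences, with an SE of 0.19 and 0.21 and an adjusted p of 1.00 on each probe (unadjusted p = 0.0704 and 0.508). Leaving out high fat diet replicate 1 gave 0.38 on the RefSeq probe (limma adjusted p = 0.868) and 0.14 on the RIKEN clone probe. Leaving out high fat diet replicate 3 gave 0.073 and 0.046.

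Metformin pools were also compared with control pools, which takes diet, gavage and drug together. The RefSeq probe differed by -0.16 (SE 0.18, 95% interval -0.56 to 0.23, limma adjusted p = 0.659), or 0.895 times control. The RIKEN clone probe differed by -0.23 (SE 0.15, 95% interval -0.56 to 0.10, limma adjusted p = 0.434), or 0.853 times control. The call was again 0 of 2, where 0.546% of tested probes were called, 19.1% had an unadjusted p under 0.05, and 24.9% had groups that did not overlap. These groups share no slide. With slide as a block, which links them only through the high fat diet pools, the RefSeq difference was 0.40 (SE 0.29, adjusted p of 1.00) and the RIKEN clone difference -0.085. Without control replicate 1 the RIKEN clone difference was -0.36 (adjusted p = 0.113). On unscaled log2 signal the RefSeq difference was -0.44 (limma adjusted p = 0.138) and the RIKEN clone difference -0.51 (limma adjusted p = 0.0849). The median of all tested probes was -0.28 there. The comparisons share pools, so their values are not independent of each other.

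**Figure D3:**
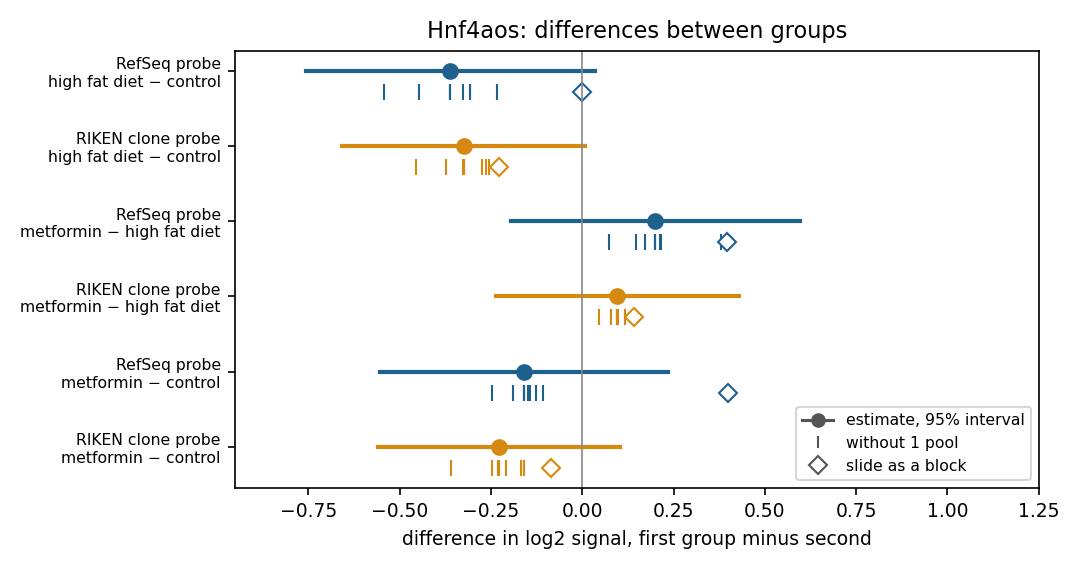
Difference in Hnf4aos level between groups (x axis, log2 signal, first group minus second) for each probe and comparison. Circles and lines are limma estimates with 95% intervals from 9 pools, short upright marks the estimates without 1 pool, and open diamonds those with slide as a block. Every interval includes 0, and the RefSeq probe moved from -0.36 to 0.00025 between high fat diet and control with slide as a block. That block value compares high fat diet replicate 1 alone with the control pools.

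After scaling, the order of the group means was the same on each probe, with control highest, metformin next and high fat diet lowest. On unscaled signal the metformin mean was the lowest on each probe. It was 856 against 883 with the high fat diet on the RefSeq probe, and 738 against 813 on the RIKEN clone probe. With slide as a block the RefSeq level was 0.40 higher with metformin than in control. The means next to each other in the scaled order did not differ beyond the test. The intervals nevertheless leave room for moderate changes. Between high fat diet and control they reach from 0.592 to 1.02 times control on the RefSeq probe and from 0.634 to 1.00 times on the RIKEN clone probe. Between metformin and high fat diet they reach from 0.874 to 1.51 times and from 0.849 to 1.35 times.

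Other opposite-strand transcripts gave a yardstick for a noncoding RNA of this kind. Of 87 others named on the array, 51 were tested. Between high fat diet and control 24 were higher and 27 lower, with a median of -0.025 and a range from -1.33 to 1.60. The Hnf4aos probes, at -0.36 and -0.32, each had 10 of the 51 below them, and 13 and 14 of the 51 had a larger difference in size. Between metformin and high fat diet 27 were higher and 24 lower with a median of 0.009, and 21 and 32 of them had a larger difference in size than the RefSeq and RIKEN clone probes. Between metformin and control the median was -0.037. Limma called 0, 0 and 1 of the 51 in these comparisons, where it called 0.0451%, 0.00645% and 0.546% of all tested probes. An unadjusted p under 0.05 was found for 7, 8 and 7 of the 51, beside 12.1%, 6.64% and 19.1% of all tested probes. The Hnf4aos differences lay within the range of these transcripts, which were not matched to it in brightness.

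The surroundings of Hnf4aos could be read only in part, since most coding genes on this array have no name in the files used here. Hnf4a itself had no probe with that name, so the sense and antisense levels were not compared. Of the 10 genes nearest to Hnf4a, 5 on each side, 2 had a named probe. The noncoding 2310001K24Rik was above background on 1 array and was not tested. The noncoding 0610039K10Rik, whose locus overlaps that of Serinc3 in the RefSeq table, read 2.06, 1.77 and 1.92 in control pools 1, 2 and 3. It read 2.18, 1.85 and 1.74 in the high fat diet pools and 2.23, 1.98 and 2.08 in the metformin pools. The groups overlapped, and its differences were 0.009 between high fat diet and control (SE 0.16, limma adjusted p = 0.993) and 0.17 between metformin and high fat diet (SE 0.16, adjusted p = 0.894). With the diet the mean of this neighbour thus differed from control by 0.009 with an SE of 0.16, beside -0.36 and -0.32 for Hnf4aos. As on each Hnf4aos probe, its high fat diet replicates 2 and 3 lay below high fat diet replicate 1. The gap between both transcripts was not tested, and a steady level of the neighbour is not shown.

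Of 29 hepatocyte transcription factor genes, 1 had a named and tested probe, and of 42 genes that HNF4A is known to regulate none had a named probe. The factor was Rxra, the retinoid receptor that pairs with other nuclear receptors, read through a RIKEN clone that may not measure its main mRNA. It was at -0.22, -0.75 and -1.004 in control pools 1, 2 and 3, at -0.55, -0.80 and -0.82 in the high fat diet pools and at -0.50, 0.16 and -0.10 in the metformin pools. Every metformin pool was above every high fat diet pool. Such groups did not overlap in either direction for 16.2% of tested probes. The difference of 0.58 did not pass (SE 0.23, limma adjusted p = 0.715).

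Among 15 other transcripts sought opposite such factors, Gata6os, opposite the endoderm factor gene Gata6, had a tested probe. It was at 0.046, 0.042 and 0.19 in control pools 1, 2 and 3. The high fat diet pools were at 0.53, 0.30 and 0.43 and the metformin pools at 0.30, 0.56 and 0.28, all above every control. Its difference between high fat diet and control was 0.33 (SE 0.14, limma adjusted p = 0.388), opposite in sign to Hnf4aos, and it did not pass. Groups did not overlap in either direction for 15.4% of tested probes there, and for 24.9% between metformin and control.

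Named genes whose levels ran most like the RefSeq probe of Hnf4aos over the 9 pools were 5 predicted noncoding RNAs. Gm31501 had the highest Pearson's r (0.972 over 9 pools; 0.997 for deviations from group means; 0.870 with the RIKEN clone probe). It was at -2.55 ± 0.18 (SD, n = 3) in the controls, -3.25 ± 0.45 in the high fat diet pools and -2.99 ± 0.06 in the metformin pools, and was above background on 7 of 9 arrays. Next came Gm16246 (r = 0.952), Gm41909 (0.952), Gm31601 (0.898) and Gm30762 (0.897), above background on 5, 7, 9 and 9 arrays. All 5 were dim, with mean levels between -3.41 and -2.26, where values are least certain. They are the closest among 2707 named and tested genes, Hnf4aos included, over 9 points that share the arrays, and these values describe the pattern only.

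Some facts of the whole series bear on these values. The 9 arrays correlated at 0.973 to 0.990 within groups and at 0.963 to 0.986 between groups over all tested probes, and no 2 arrays held identical values. The share of spots well above background ran from 53.0% to 63.5%. None of the 10 hepatocyte markers listed had a named probe, so the liver label could not be checked against them. Of 57 markers in 10 cell type lists, Rgs5, a pericyte and stellate cell marker read through a RIKEN clone, had a named and tested probe. It ranged from 0.74 to 1.40 in the controls, 1.22 to 1.96 in the high fat diet pools and 1.20 to 1.65 in the metformin pools. Its part in the Hnf4aos values was not tested.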

How the data were processed

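Per the file headers, the authors scanned 1-colour arrays and extracted spots with Agilent Feature Extraction 11.5.1.1, while the submitters' processing notes give version 10.7. The deposited processed signal is an intensity, already background-subtracted. Deposited flags of the extraction software (other values, 0 or 1) marked outlier spots, of which 73 to 192 per array were removed, and spots well above background. The authors' deposited series table holds log2 values. Their median shift from the scaled scanner values was between -0.0022 and -0.0013 per array. With that shift taken out, they equalled the scanner values within 0.01 for at least 99.97% of probes per array. For each probe the mean log2 processed signal of its spots was taken, less the array's 75th percentile over probes. Probes with a share of at least 0.5 of spots above background on at least 3 of 9 arrays were kept (62091), and 62036 with complete values were tested.

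Comparisons used limma 3.58.1 under R 4.3.3: lmFit and eBayes on all 9 arrays, with 1 mean per group and 6 residual and 3.75 prior degrees of freedom. Benjamini-Hochberg adjustment ran over all tested probes at 0.05. The script was tested on simulated data. Names came from RefSeq accessions (4658 probes) and RIKEN clones (1209) through a table of GRCm38.p6; the files' build field names mm9, and coordinates are printed only for the promoter, from RefSeq. A gene with several tested probes was read by its brightest. Named genes were all Hnf4aos probes, members of the lists, and the 5 genes most like the brighter Hnf4aos probe. Members and lists were chosen with earlier results of these data known. The normexp alternative (offset 50) used the median pixel signal in place of the planned mean pixel signal, which was not used here. Alternatives covered scaling, background, filter, spot averaging, slide, the replicate number, the groups in the fit, the deposited table and each pool left out. The number of arrays limits the precision.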

Additional observations from a re-analysis of the deposited data

How the results depend on the processing

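No Hnf4aos difference passed the threshold under any of the 126 alternative fits (21 for each probe and comparison). In many of them the difference itself could not change, only its SE and p-values. This held for the filters, the median over spots, the replicate block and the fit of only the groups compared. It also held when a pool of the group not compared was left out. The 122 of 126 fits that kept their sign include these. The 4 exceptions were the RefSeq probe with slide as a fixed block, at 0.00025 between high fat diet and control and at 0.40 between metformin and control, and both probes between metformin and high fat diet with no scaling between arrays (-0.040 and -0.14). The 0.00025 rests on high fat diet replicate 1 alone against the controls. The unscaled fit was chosen after seeing the data, and in it the median of all tested probes was -0.23 in that comparison and -0.28 between metformin and control. With the replicate block, the differences kept their values, for example -0.36 on the RefSeq probe between high fat diet and control, with adjusted p = 0.501, and no call changed. Same-numbered pools did not deviate together over all probes (r from -0.094 to 0.128), so the numbers were not taken as pairs.

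Leaving out each pool in turn gave -0.54 to -0.23 (RefSeq) and -0.46 to -0.26 (RIKEN clone) between high fat diet and control, 0.073 to 0.38 and 0.046 to 0.14 between metformin and high fat diet, and -0.25 to -0.11 and -0.36 to -0.16 between metformin and control. The gap between probes in the high fat diet against control (-0.036) ran from -0.17 to 0.040 when 1 pool was left out, turning sign without control replicate 1 (0.0077), high fat diet replicate 2 (0.019) or high fat diet replicate 3 (0.040), and was 0.23 within slide 1. The correlation of both probes stayed between 0.803 and 0.898 without 1 pool. Over all probes the number called ran from 0 to 296, 0 to 7 and 0 to 8243 in the order of the comparisons, against 28, 4 and 339. The highest were those without high fat diet replicate 1 (296), with normexp (7) and with slide as a random block (8243), and 2711 were called between metformin and control without control replicate 1. The random block used a negative consensus correlation within slides (-0.168), and the groups behind the 8243 share no slide. Each probe had 1 spot per array, so spot error could not be averaged out.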
